A study of Mus musculus with 8 samples.

Results

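Atrial cardiomyocytes of the mouse heart were picked out of single-nucleus RNA sequencing (snRNA-seq) libraries of whole hearts by their transcripts. A barcode with at least 800 unique molecular identifiers (UMIs, counts of single captured transcripts) outside mitochondrial genes was kept if the light chain genes Myl7 and Myl4, the calcium pump inhibitor Sln and the secreted protein gene Dkk3 together made up a share of its UMIs at least 5 times their share in the whole library, with at least 5 UMIs on them. The cardiomyocyte genes Ryr2, Ttn, Fhod3, Ctnna3 and Rbm20 had to reach at least 0.8 times their library share. This left 792 nuclei of 169193 barcodes, or 0.473% of the barcodes with at least 800 UMIs. The study that made these libraries also set a floor of 800 transcripts but kept fewer nuclei than there are such barcodes. The barcodes counted here thus include some that it left out, and how many of the 792 are among them was not tested. For comparison, 22285 ventricular nuclei were taken from the same libraries, with at least 1.5 times the library share of the cardiomyocyte genes and less than the library share of the atrial genes.

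Atrial cardiomyocytes are the muscle cells of the upper heart chambers. They fill the ventricles, release the natriuretic peptide ANP (encoded by Nppa), carry muscarinic potassium channels through which the vagus nerve slows the heart, and use the light chains Myl7 and Myl4 where ventricular cells use Myl2 and Myl3. Tafazzin, encoded by the X-linked gene Taz, is a transacylase that remodels cardiolipin, a lipid of the inner mitochondrial membrane, and its loss in people causes Barth syndrome with cardiomyopathy. A response to mitochondrial stress known from heart muscle runs through the transcription factor ATF4, which induces genes for amino acid synthesis, amino acid transport and charging of tRNAs.

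The study compared the hearts of 4 WT mice (replicates 4686, 4909, 5355 and 5356) with those of 4 Taz-KO mice (replicates 4685, 4910, 5300 and 5301), all males of 9 weeks, with 1 library per mouse; values of single mice are given in these orders. The study's methods refer to earlier work for the knockout allele, and whole hearts were minced, so the chambers were not dissected apart. The atrial nuclei numbered 86, 94, 109 and 91 in the WT mice and 12, 258, 131 and 11 in the Taz-KO mice, and their UMIs outside mitochondrial genes summed to 59053 to 2129022 per mouse. Taz-KO replicates 4685 and 5301 thus rest on few nuclei, and 1 UMI in their sums is worth 6.22 and 16.9 CPM (counts scaled to 1000000 UMIs outside mitochondrial genes), against 0.4697 to 1.19 CPM in the other mice. The median atrial nucleus held 4347 to 12253.5 UMIs, of which a median of 1.16% to 23.0% were mitochondrial, and no atrial barcode occurred in more than 1 library. Pairs of libraries shared 0.0573% to 1.04% of their barcodes. No doublet caller was run; 95 of the 792 nuclei held at least 3 times the library share, and at least 5 UMIs, of the marker genes of another cell type. Such markers were present throughout: the summed fibroblast list was at 1589 to 6926 and 1236 to 5346 CPM in WT and Taz-KO atrial nuclei (below the whole library in 8 of 8 mice), the endothelial list at 483 to 852 and 203 to 1137 CPM, the macrophage list at 334 to 1018 and 474 to 957 CPM and the pericyte list at 227 to 434 and 50.8 to 334 CPM. None of the 8, 8, 7 and 6 markers tested passed the test between genotypes described below, where 1.96% of all genes tested did. Smooth muscle markers went otherwise, with a summed list at 24.8 to 67.8 and 74.6 to 271 CPM. Of that list 2 markers were tested, and 1 of them, Acta2, was higher in Taz-KO mice.

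Genes that the rule did not use bear on the name of these nuclei. Nppa was at 1714, 1060.1, 1562 and 658 CPM in the atrial nuclei of the WT mice and 2455, 2709, 3393 and 1490.2 CPM in those of the Taz-KO mice, against 31.3 to 216 and 14.3 to 131 CPM in ventricular nuclei of WT and Taz-KO mice. Ranges given in pairs below are of WT, then of Taz-KO mice. Kcnj3, a subunit of the muscarinic potassium channel, lay at 2624 to 4503 and 1439 to 3082 CPM in the atrial nuclei and at 469 to 761 and 124 to 252 CPM in the ventricular nuclei of the same genotypes. The myosin-binding protein gene Mybphl lay at 162 to 245 and 87.8 to 136 CPM against 0.765 to 2.88 and 0.164 to 2.39 CPM. For each of these genes, every atrial sum was above every ventricular sum. This also held for Tbx5, a transcription factor of atrial and conduction tissue, with 335 to 596 and 274 to 593 CPM against 68.4 to 79.7 and 37.0 to 46.7 CPM.

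The ventricular genes gave a mixed picture. The ventricular transcription factor gene Irx4 was at 2.05 to 5.27 and 0 to 13.1 CPM in atrial nuclei and at 14.1 to 17.7 and 9.38 to 19.5 CPM in ventricular nuclei. The ventricular light chain gene Myl2 was at 1879, 2713, 1887 and 331 CPM in the atrial nuclei of the WT mice, a range that overlaps that of the ventricular nuclei (875 to 2409.5 CPM). Barcodes that should lack it held it too: over 13375 fibroblast-like barcodes (at least 2 times the library share of fibroblast markers, under 0.3 times that of the cardiomyocyte genes), Myl2 was at 393 to 3527 CPM in WT and 105 to 3401 CPM in Taz-KO libraries. Myl2 therefore did not separate these kinds of barcodes. For Nppa the fibroblast-like barcodes held 76.3 to 508 and 83.4 to 688 CPM, below every atrial sum of the same genotype.

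**Figure D1:**
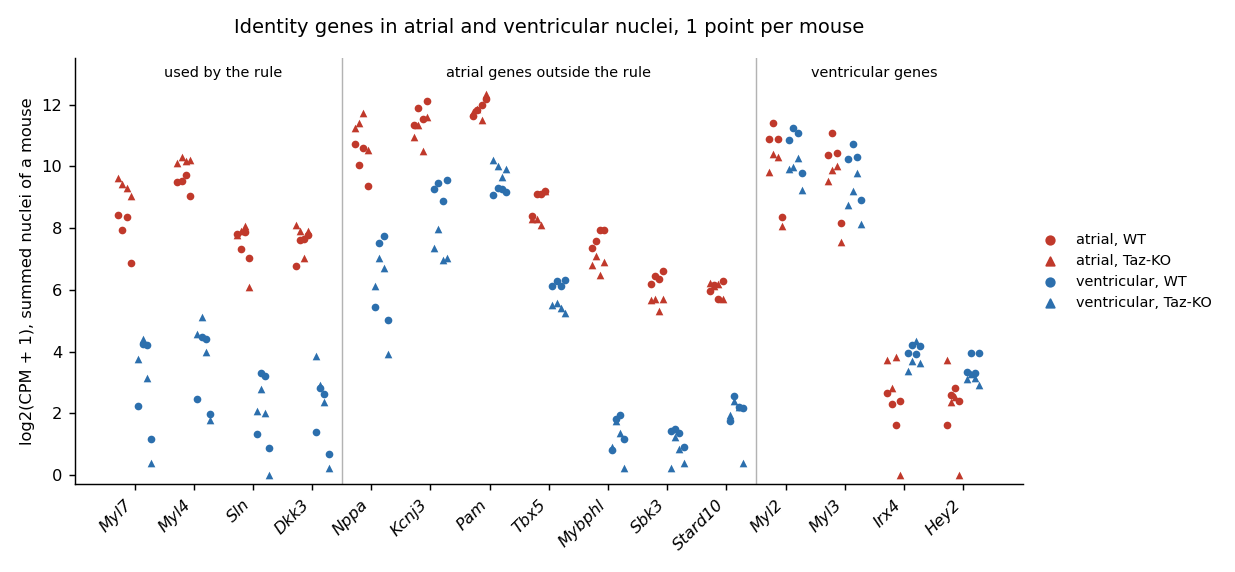
Level of identity genes on a log2(CPM + 1) axis, summed over the atrial (red) or ventricular (blue) nuclei of a mouse, with circles for WT and triangles for Taz-KO mice. The atrial genes outside the rule separate the 2 sets of nuclei in all 8 mice, while Myl2 and Myl3 overlap.

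The genes with the largest atrial to ventricular ratio of mean levels over the 8 mice, among genes of at least 20 CPM in atrial nuclei, are given as a description, since the nuclei were chosen on atrial genes. The largest ratio, 327, was that of the noncoding gene 1700021F13Rik, at 43.3 ± 27.7 against 0.132 ± 0.123 CPM (mean ± SD, n = 8). Among the others, Fgf12, a regulator of sodium channels, had a mean of 4604 ± 1869 against 17.5 ± 11.6 CPM (mean ± SD, n = 8). Tmem163, a zinc transporter gene, had 525 ± 197 against 2.95 ± 1.55 CPM, and Ryr3, a calcium release channel better known from brain and smooth muscle, had 622 ± 659.6 against 6.03 ± 3.07 CPM. Lrrc4c (a synaptic adhesion protein), Kcnh7 (a potassium channel) and Adcy1 (a calcium-stimulated adenylyl cyclase) were 41.4, 38.3 and 29.6 times as high, and Hamp, the gene of the iron hormone hepcidin, 31.5 times. All 15 genes named by this rule were higher in the atrial nuclei of all 8 mice. Ryr3 differed widely between mice, from 214 to 2218 CPM.

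Values of nuclei near the threshold of the rule are a further description. The 147 nuclei just outside it, with 4 to 5 times the library share of the atrial genes, held 923 CPM of Nppa and 2405 CPM of Kcnj3. The 127 nuclei just inside, with 5 to 6 times that share, held 933 CPM of Nppa and 2522 CPM of Kcnj3. All 792 nuclei held 1978 and 2924 CPM, and the ventricular nuclei 119 and 484 CPM. Values on either side of the atrial threshold were thus close for these genes. Below the cardiomyocyte threshold it was otherwise: the 129 nuclei with 0.7 to 0.8 times the library share of the cardiomyocyte genes held 3877 CPM of Nppa, 1071 CPM of Kcnj3 and 181 CPM of Tbx5, against 419 CPM of Tbx5 in the 792 nuclei.

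The 792 nuclei were not uniform. Bmp10, a growth factor gene known from the right atrium, had a UMI in 243 nuclei (30.7%, exact 95% interval 27.5% to 34.02%), against 3.99% of the ventricular nuclei and 3.33% of the fibroblast-like barcodes; the median UMIs of the 3 kinds of barcodes were 8745, 13918 and 5928. Intervals cover counting error only. Of the pacemaker genes, the channel gene Hcn4 had a UMI in 32 atrial nuclei (4.04%) and in 3.84% of ventricular nuclei, and Shox2 in 29 (3.66%) and 0.956%. The pooled ventricular share of Hcn4 mixes genotypes that did not overlap, at 3.68% to 7.001% by WT mouse and 0% to 1.55% by Taz-KO mouse. Its atrial shares overlapped, at 0% to 6.59% and 0% to 6.98%. Of the 32 atrial nuclei, 18 came from Taz-KO replicate 4910. The share of atrial nuclei with a Bmp10 UMI was 2.33%, 47.9%, 22.02% and 10.99% in the WT mice and 50.0%, 36.0%, 42.7% and 63.6% in the Taz-KO mice.

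Ventricular nuclei had Bmp10 UMIs as well, in 0.279% to 9.59% of nuclei by WT mouse. The level of Bmp10 in atrial nuclei was 8.44, 136, 76.0 and 34.5 CPM in WT mice against 267, 164, 151 and 389 CPM in Taz-KO mice, so that the genotypes did not overlap. The log2 fold change of Taz-KO against WT was 1.70 ± 0.58 (adjusted p = 0.202, quasi-likelihood test of edgeR over 9686 genes, ± SE here and below), which missed the threshold of 0.05. The mix of left and right atrial nuclei cannot be told apart from the level of Bmp10 per nucleus in dissociated whole hearts, and how much it differed between genotypes was not tested.

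Atrial nuclei made up 2.60%, 2.17%, 3.31% and 2.93% of the atrial and ventricular nuclei together in the WT mice and 6.35%, 5.49%, 3.55% and 2.402% in the Taz-KO mice. The means were 2.75% ± 0.485 and 4.45% ± 1.80 (SD, n = 4 each; exact two-sided permutation test, p = 0.143, where 0.0286 is the smallest value that 4 against 4 mice allow). The genotypes overlapped, and without Taz-KO replicate 5301 the difference rose from 1.70 to 2.38 percentage points with p = 0.0571 in the same exact test. As a share of all barcodes with at least 800 UMIs, the atrial nuclei were 0.410% ± 0.0772 in WT and 0.446% ± 0.189 in Taz-KO mice (SD, n = 4 each; exact permutation p = 0.8).

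The genes that chose the nuclei are described without a test. Myl7 was at 342, 246, 329.7 and 117 CPM in WT mice, against 789, 690.5, 624 and 525 CPM in Taz-KO mice, and Myl4 at 729.8, 741, 838 and 527 CPM in WT and 1113, 1252, 1149 and 1185 CPM in Taz-KO mice. Both were higher in every Taz-KO mouse than in every WT mouse, but their level in these nuclei is tied to the rule. Of all genes tested, 8.71% did not overlap. Sln overlapped between genotypes, with 129 to 233 and 67.7 to 269 CPM, as did Dkk3, with 109.7 to 217 and 131 to 273 CPM. The share of UMIs that the rule asked for depends on the library, from 314 to 879 CPM of the 4 genes in the WT and from 356 to 1233 CPM in the Taz-KO libraries, and its part in these levels was not tested. In nuclei chosen on Sln and Dkk3 alone, where 2 Taz-KO mice kept at least 10 nuclei, the log2 fold changes were 1.24 ± 0.40 for Myl7 (adjusted p = 0.24) and 0.74 ± 0.24 for Myl4 (adjusted p = 0.243). The genotypes overlapped there when the sums of all mice were taken: Taz-KO replicate 5301, with 11 and 14 UMIs, was at 187 CPM of Myl7, against up to 313 CPM in WT mice, and at 238 CPM of Myl4, below every WT mouse (382 to 577 CPM).

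**Figure D2:**
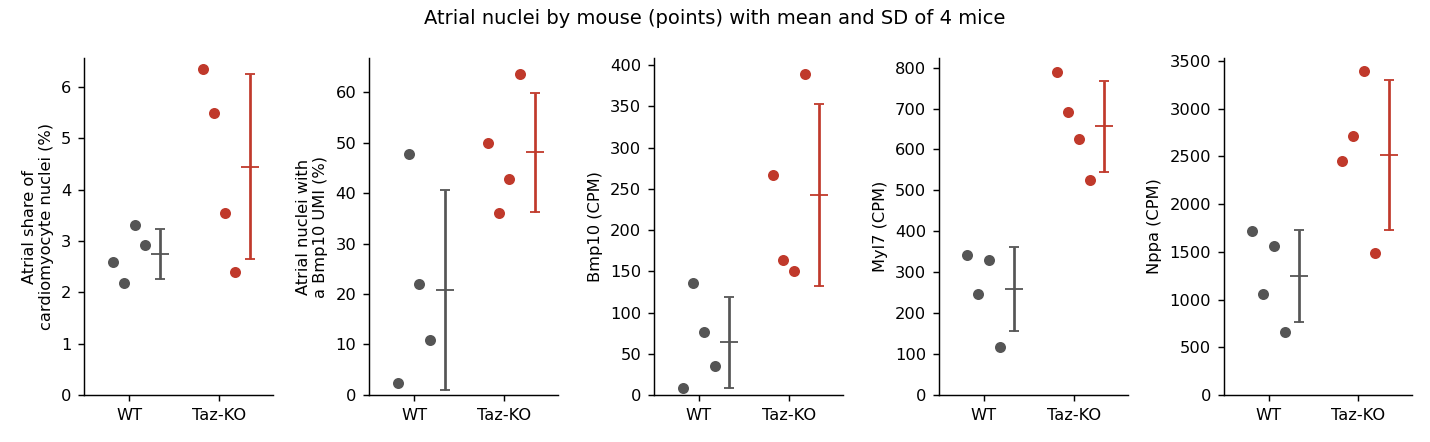
Atrial nuclei of each mouse by genotype, with points for mice and bars for the mean and SD of 4 mice; the axes give percent of nuclei or CPM and start at 0. The CPM of Bmp10 and Myl7 do not overlap between WT and Taz-KO mice in the nuclei of the rule. The atrial share, the share of nuclei with a Bmp10 UMI and the CPM of Nppa do. Myl7 is a gene that the rule used, and it overlaps in nuclei chosen on Sln and Dkk3 alone.

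Taz, the targeted gene (chromosome X, 74281912 to 74290151 on the plus strand of GRCm38), was low in all nuclei. Over the whole libraries it was at 40.8 to 42.0 CPM in WT and at 22.7 to 31.5 CPM in Taz-KO mice, which did not overlap (exact two-sided permutation test, p = 0.0286, the smallest possible with 4 against 4). In atrial nuclei it was at 35.9, 50.0, 43.1 and 49.6 CPM in WT against 62.2, 34.8, 24.9 and 16.9 CPM in Taz-KO mice. The value of Taz-KO replicate 4685, the highest of all 8, rests on 10 UMIs. The log2 fold change was -0.46 ± 0.29 (adjusted p = 0.529) in atrial nuclei and -0.60 ± 0.17 (adjusted p = 0.0393) in ventricular nuclei, and the difference between them was 0.15 ± 0.24 (adjusted p = 0.878). Reads of a 3' assay can come from parts of the gene outside a deletion, so a remaining level does not count remaining intact transcripts.

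Of 9686 genes tested in atrial nuclei, 190 (1.96%) passed an adjusted p of 0.05. Of these, 116 (1.2%) were higher and 74 (0.764%) lower in Taz-KO mice, and 169 did not overlap between the genotypes, against 8.71% of all genes tested. Without Taz-KO replicate 4910, which gave the most nuclei, 83 genes passed, and without Taz-KO replicate 5300, 59. Without the 2 Taz-KO mice of few nuclei, 4685 and 5301, 142 passed, 112 of them higher. In nuclei without a Bmp10 UMI, a selection chosen after the data were seen that drops Taz-KO replicates 4685 and 5301, 118 genes passed. The same test called 2570 of 18589 genes in ventricular nuclei (13.8%, with 8.29% higher and 5.54% lower), and 691 of 9035 after the ventricular sums were thinned to the UMIs of the atrial sums.

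Several of the largest increases were in genes almost silent in WT atria, which entered the test only through their level in Taz-KO mice. Vmn2r3, named as a vomeronasal receptor gene, had 0 UMIs in the WT mice and 286, 148, 161 and 237 CPM in Taz-KO mice, at least 206-fold higher if the WT group is set to a floor of 3 UMIs. Tenm4, a teneurin adhesion protein gene, was at 11.6, 5.99, 5.14 and 2.15 CPM in WT and 628, 1024, 671 and 779 CPM in Taz-KO atria (log2 fold change 6.88 ± 0.37, adjusted p = 4.45e-08). Soat2, which esterifies cholesterol, had 3 UMIs in WT and 125 in Taz-KO atria, a ratio of 50.3 with a counting interval of 16.8 to 247. The transcription factor gene Tfcp2l1 had 2 and 94 UMIs, a ratio of 56.7 (15.3 to 475). Each of these genes was above every WT mouse in all 4 Taz-KO mice, which was a condition for naming it and so is no separate result. Vmn2r3 and Tenm4 were also high in Taz-KO ventricular nuclei, at 163 to 359.9 and 1071 to 1734 CPM, and lower in fibroblast-like barcodes, at 13.8 to 70.3 and 80.3 to 134 CPM. Kctd16, an auxiliary subunit of GABA-B receptors, was at 8.22 to 31.6 CPM in WT atria and rose by 3.71 ± 0.41 (adjusted p = 2.66e-04) on the log2 scale, and A830018L16Rik and Gm20618, known by identifiers alone, were also among the 10 largest increases.

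Several of the largest decreases were of genes that the annotation lists as noncoding. Genes near 0 CPM in all Taz-KO mice entered the test only through the WT mice. Gm26862 fell, at 41.1 to 106 CPM in WT and 0 to 6.11 CPM in Taz-KO mice (log2 fold change -4.07 ± 0.51, adjusted p = 4.11e-04) and Gm24474 was at 275 to 420.2 CPM in WT and 0 to 51.7 CPM in Taz-KO mice (-3.14 ± 0.33, adjusted p = 6.75e-05). Rmst, Gm19689, Gm20757 and Gm32369 completed this group, with log2 fold changes of -3.38, -2.82, -2.62 and -2.32. The calls of these 4 genes were lost in 3 of 17, 3 of 17, 2 of 18 and 3 of 18 alternatives. Gm24474 and Gm32369 overlap on opposite strands of chromosome 12. Among protein-coding genes, Sema6c (a semaphorin) and Atp2b2 (a calcium pump of the plasma membrane) fell, with log2 fold changes of -3.14 and -2.55, and their calls were lost in 3 and 7 of 17 alternatives. Another pair, Sds and Cpne5, was expressed in atrial but hardly in ventricular nuclei. Sds, which breaks down serine, was at 21.1, 13.99, 32.9 and 12.9 CPM in WT and 6.22, 0.939, 1.19 and 0 CPM in Taz-KO atria (-3.88 ± 0.61, adjusted p = 0.00289), and at 0.219 to 0.497 CPM in WT ventricular nuclei. Cpne5, a calcium-dependent lipid-binding protein gene, was at 34.8, 56.9, 53.4 and 76.5 CPM in WT and 0, 12.7, 5.94 and 0 CPM in Taz-KO mice (-2.63 ± 0.42, adjusted p = 0.00293), and at 0.612 to 0.947 CPM in WT ventricular nuclei.

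Most tested genes of the amino acid stress response rose, and the others did not pass. Of 34 genes on the list, 24 passed the filter on low counts in atrial nuclei, 17 rose and none fell (1.2% of all genes tested rose), with a median log2 fold change of 1.82 against -0.02 over all 9686 genes. Asns, Trib3, Chac1 and Mthfd2, at up to 9.99 CPM in WT mice, passed the filter only through the Taz-KO mice. Slc7a11 did so too, since too few WT mice reached the level of the filter. The direction of such genes thus followed from the filter. The other members of the list were not sorted in this way. With no filter on low counts, 25 of 34 rose and none fell, with a median of 1.97, where 315 of all 21789 genes rose. Without Taz-KO replicate 5300, 11 of 24 rose, and at an atrial enrichment of at least 10, where fewer genes could be tested, 4 of 15. Among ventricular nuclei the same 24 genes had a median of 2.15; both chambers come from the same 8 libraries. The list was drawn up with results of these hearts known, so its direction is no independent evidence. The 17 genes were the regulators Atf4, Atf5, Ddit3, Cebpg, Trib3, Nupr1, Sesn2 and Eif4ebp1, the enzymes Chac1, Asns, Mthfd2, Aldh1l2 and Aldh18a1, and the transporters Slc7a1, Slc7a5, Slc7a11 and Slc3a2.

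Among the regulators, Atf5, a transcription factor gene under the control of the same pathway, was at 29.5, 28.0, 36.0 and 15.1 CPM in WT and 80.8, 149, 142 and 220.1 CPM in Taz-KO atria (log2 fold change 2.31 ± 0.28, adjusted p = 2.86e-04). Trib3, a pseudokinase gene that restrains the response, was at 3.16, 7.99, 6.16 and 1.08 CPM in WT and 87.0, 53.1, 72.4 and 119 CPM in Taz-KO mice (3.82 ± 0.39, adjusted p = 6.75e-05). Chac1, which degrades glutathione, had 2 UMIs in the WT mice and 70 in the Taz-KO mice, a ratio of 42.2 (counting interval 11.3 to 356). These 3 genes did not overlap between genotypes. Atf4 itself rose less, at 40.1, 68.9, 32.9 and 38.8 CPM in WT and 143, 102, 113 and 50.8 CPM in Taz-KO mice, with overlap (1.20 ± 0.27, adjusted p = 0.0288), and its call was lost in 10 of 18 alternatives. The calls of Slc7a1, Ddit3, Eif4ebp1 and Nupr1 were lost in 8, 7, 7 and 6 of 18.

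Among the enzymes and transporters, Asns, which makes asparagine, was at 0, 2.997, 1.03 and 1.08 CPM in WT and 74.6, 52.1, 42.7 and 33.9 CPM in Taz-KO atria (5.10 ± 0.48, adjusted p = 3.15e-05). Mthfd2, a mitochondrial folate enzyme, was at 4.22, 9.99, 7.19 and 4.31 CPM in WT and 93.2, 80.8, 78.4 and 33.9 CPM in Taz-KO mice (3.51 ± 0.32, adjusted p = 2.56e-05). Aldh18a1, which starts proline synthesis, rose by 2.84 ± 0.43 (adjusted p = 0.00252). For these enzymes too, every Taz-KO mouse was above every WT mouse. Slc7a5, the light chain of a large neutral amino acid transporter, rose by 3.42 ± 0.56 (adjusted p = 0.00385) and its heavy chain Slc3a2 by 1.73 ± 0.28 (adjusted p = 0.00375), while Slc7a11, the cystine importer, was at 11.6, 5.99, 2.05 and 5.39 CPM in WT and 18.6, 27.7, 40.4 and 84.7 CPM in Taz-KO mice (2.37 ± 0.45, adjusted p = 0.0104). The secreted stress hormone gene Gdf15 and the serine enzyme gene Phgdh did not pass the filter, with 3 UMIs each in the WT mice and 128 and 100 in the Taz-KO mice; both had 0 UMIs in 1 of the 2 Taz-KO mice with few nuclei.

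Several of these transcripts also occurred in fibroblast-like barcodes of the Taz-KO libraries. There, Asns was at 6.72 to 58.6 CPM, Trib3 at 11.1 to 82.0 CPM, Chac1 at 2.77 to 46.9 CPM and Mthfd2 at 15.4 to 103 CPM. Atf5 was at 43.5 to 185 CPM there, and at 55.9 to 99.6 CPM in fibroblast-like barcodes of WT libraries. The Taz-KO ranges overlap those of Taz-KO atrial nuclei, whereas Tenm4 and Vmn2r3 were lower there than in every atrial sum. For these 5 genes, RNA made in atrial nuclei and free RNA of other cells cannot be told apart in these counts. The other stress genes and the synthetases were not compared in this way.

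The cytosolic aminoacyl-tRNA synthetases, which load amino acids onto tRNAs, had 9 calls, all higher in Taz-KO mice. Of 20 genes, 19 were tested, 9 rose (Aars, Eprs, Gars, Iars, Lars, Mars, Nars, Sars and Yars) and none fell, with a median log2 fold change of 1.31, where 1.2% of all genes tested rose and their median was -0.02. Without Taz-KO replicates 5300 or 4910, 5 and 6 of 20 rose, and at an atrial enrichment of at least 10, 4 of 12. Gars, the glycine enzyme, was at 39.0, 32.0, 29.8 and 14.01 CPM in WT and 112, 105, 127 and 119 CPM in Taz-KO atria (1.94 ± 0.26, adjusted p = 6.93e-04). Eprs, the enzyme for glutamate and proline, was at 73.8, 95.9, 74.0 and 81.9 CPM in WT and 329, 283, 272 and 322 CPM in Taz-KO mice (1.80 ± 0.20, adjusted p = 1.51e-04), and Lars at 48.5, 56.0, 58.5 and 54.9 CPM in WT and 162, 142, 186 and 203 CPM in Taz-KO mice (1.55 ± 0.20, adjusted p = 6.09e-04). In these 3 genes the genotypes were far apart. Dars, the aspartate enzyme, gave -0.01 ± 0.22 (adjusted p = 0.999). Of 17 mitochondrial synthetases, 11 were tested, with a median of 0.08, and none passed, where 1.96% of all genes tested did. Of 12 mitochondrial chaperones and proteases, 11 were tested and Hspe1 (1.39 ± 0.28, adjusted p = 0.015) and the protease Lonp1 (2.0003 ± 0.31, adjusted p = 0.00262) rose, again against 1.2% of all genes. The call of Hspe1 was lost in 7 of 18 alternatives, as was that of Aars.

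The proximal promoters of the genes that rose were searched for TGATGNAA on both strands (TTNCATCA on the reverse strand), the core of the element that ATF4 dimers are known to bind, in 250 bases before to 50 bases after the start (RefSeq, GRCm38.p6). Of all 32851 promoters, 3.97% held it, and of all 27025 genes with a promoter, 4.51%. Counted by gene, promoters were at hand for 14 of the 17 stress genes that rose, of which 5 held it, and for 6 of the 9 tRNA synthetase genes that rose, of which 4 held it. Windows of 8 of these genes are shown as examples of the matched letters, with 1 match each, in capitals:
Asns: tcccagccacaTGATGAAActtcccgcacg
Trib3: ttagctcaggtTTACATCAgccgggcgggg
Chac1: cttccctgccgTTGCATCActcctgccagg
Nupr1: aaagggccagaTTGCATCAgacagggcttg
Slc7a11: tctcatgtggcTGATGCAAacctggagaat
Gars: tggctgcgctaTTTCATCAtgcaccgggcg
Iars: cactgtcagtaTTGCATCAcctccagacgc
Yars: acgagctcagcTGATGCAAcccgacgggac
The windows lie at chr6:7693214-7693243 on the minus strand (Asns), chr2:152344028-152344057 on the minus strand (Trib3) and chr2:119351038-119351067 on the plus strand (Chac1). Those of Nupr1 and Slc7a11 lie at chr7:126625562-126625591 on the minus strand and chr3:50443661-50443690 on the minus strand. Those of Gars, Iars and Yars lie at chr6:55037960-55037989 on the plus strand (Gars), chr13:49682126-49682155 on the plus strand (Iars) and chr4:129189895-129189924 on the plus strand (Yars). A match in these letters does not show that a factor binds there. The stress list was drawn up as genes of the ATF4 response, so a share above that of all genes was set in advance. List members that did not rise were not counted apart, so the counts of promoters do not bear on the rise in Taz-KO mice.

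**Figure D3:**
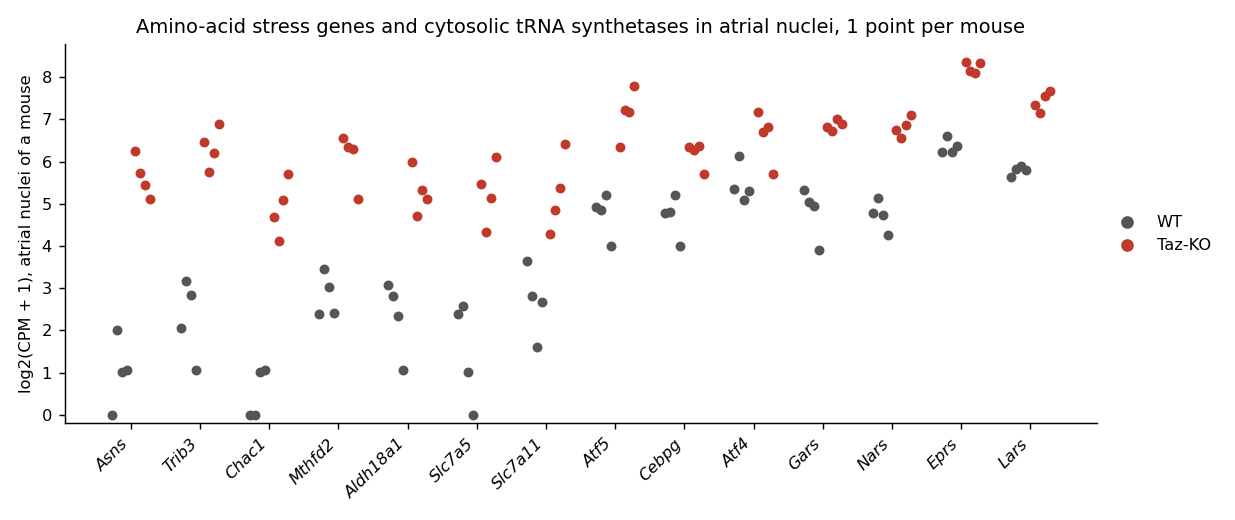
Level of amino acid stress genes and cytosolic tRNA synthetases on a log2(CPM + 1) axis, 1 point per mouse, in atrial nuclei of WT (grey) and Taz-KO (red) mice. All genes shown other than Atf4 have every Taz-KO mouse above every WT mouse.

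Fatty acid oxidation is the main fuel pathway of the adult heart. All 28 genes of the list were tested in atrial nuclei and 1 passed, where 1.96% of all genes tested did, the thioesterase gene Acot2, which rose and was at 16.9, 12.99, 20.5 and 11.9 CPM in WT and 43.5, 57.8, 49.9 and 0 CPM in Taz-KO mice, with overlap (1.597 ± 0.33, adjusted p = 0.0184), a call lost in 5 of 18 alternatives. The median log2 fold change of the list was -0.43, and 22 of 28 were negative, as were 5021 of all 9686 genes. With no filter on low counts 4 of 28 fell, where 289 of all 21789 genes did. With DESeq2, or without WT replicate 5356, 1 fell. In ventricular nuclei 17 of the 28 fell, against 5.54% of all genes tested there, and the median was -0.88. Acsl1, which activates fatty acids, was at 251, 331, 465 and 331 CPM in WT and 99.5, 221, 188 and 67.7 CPM in Taz-KO atrial nuclei, without overlap but short of the threshold (-1.14 ± 0.29, adjusted p = 0.0618). Acaa2, the last enzyme of a turn of beta-oxidation, was at 126 to 245 and 16.9 to 137 CPM (-1.06 ± 0.31, adjusted p = 0.103).

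None of the 39 nuclear-encoded respiratory chain genes passed in atrial nuclei (median log2 fold change 0.15), where 1.96% of all genes tested did. This median lay between -0.06 and 0.37 in the alternatives, and was negative without Taz-KO replicate 4910 or without WT replicate 5356. None passed in ventricular nuclei either (median -0.51), where 13.8% of all genes tested did. The difference between the chambers was positive and passed in 16 of 39 respiratory chain genes and 4 of 28 fatty acid genes, against 1.35% of all 14249 genes tested. The 16 respiratory chain genes became 3 without Taz-KO replicate 4910, 7 without 5300, 8 without 4685, 6 without WT replicate 5355 and 9 without WT replicate 5356, and none passed with limma. They also became 2 at an atrial enrichment of at least 10, 4 at a cardiomyocyte enrichment of at least 1.5, 4 with ventricular nuclei taken at 0.8, 6 with DESeq2 and 8 with no filter on low counts. The 4 fatty acid genes became none without Taz-KO replicate 4910, 1 without 5300, 2 without 4685 and 1 without WT replicate 5356, and none passed at an atrial enrichment of at least 10, with ventricular nuclei taken at 0.8 or with limma. With DESeq2, or at a cardiomyocyte enrichment of at least 1.5, 1 passed. Fibroblast markers had the same order, with a median log2 fold change of -0.10 in atrial and -0.70 in ventricular nuclei over 8 genes, none of which passed in either chamber. In ventricular nuclei their summed level was 942 to 4437 and 164 to 3258 CPM. The part of free RNA in the difference was not tested.

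**Figure D4:**
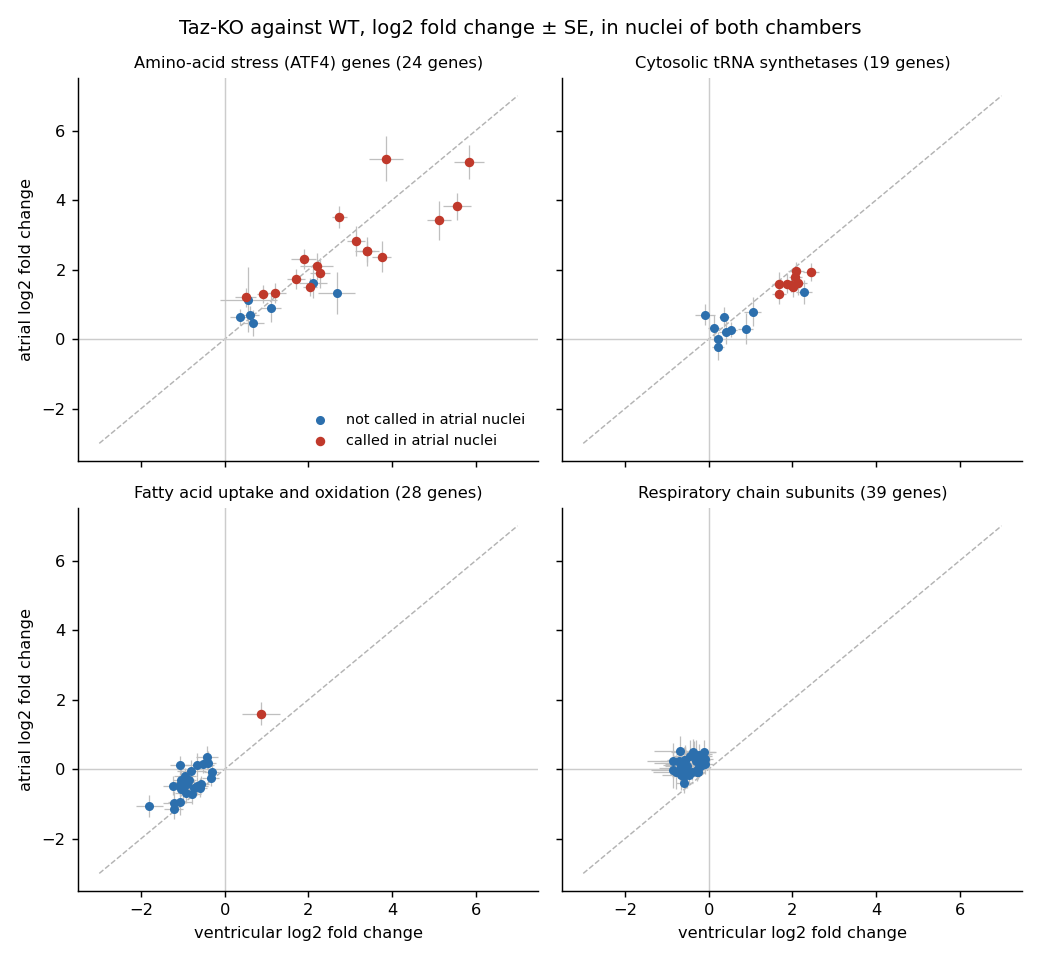
Log2 fold change of Taz-KO against WT in ventricular (x axis) and atrial (y axis) nuclei of the same hearts, with SE bars, for 4 gene lists; the dashed line marks equal values. In atrial nuclei 24 of 24 stress genes, some of them tested only through their level in Taz-KO mice, and 17 of 19 synthetases are above 0. The respiratory chain genes have a median of 0.15 in atrial and of -0.51 in ventricular nuclei. Their atrial median is negative without Taz-KO replicate 4910 or without WT replicate 5356.

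Of 38 ion channel and connexin genes, 30 were tested and 2 fell in atrial nuclei, against 0.764% of all genes tested. With no filter on low counts 8 of 38 fell, where 289 of all 21789 genes did. At a cardiomyocyte enrichment of at least 1.5 none of 30 fell. Cacna1d, the calcium channel of atrial and pacemaker cells, was at 233, 341, 169 and 367 CPM in WT and 37.3, 141, 97.3 and 119 CPM in Taz-KO mice (-1.49 ± 0.34, adjusted p = 0.0376). Kcnd2, a channel of the transient outward current, was at 1763, 1020.1, 1405 and 1946 CPM in WT and 273, 859, 754 and 423 CPM in Taz-KO mice (-1.43 ± 0.34, adjusted p = 0.0431). Neither gene overlapped between genotypes, but their calls were lost in 11 and 12 of 18 alternatives, and neither passed without Taz-KO replicate 4685, 5300 or 5301. Gja5, the atrial connexin, was at 20.04, 30.0, 43.1 and 64.6 CPM in WT and 18.6, 14.6, 14.2 and 0 CPM in Taz-KO mice (-1.52 ± 0.42, adjusted p = 0.0874), also without overlap and short of the threshold, and the T-type calcium channel gene Cacna1g gave -1.46 ± 0.36 (adjusted p = 0.0509). The median of the 30 genes was -0.63 and 22 were negative, as were 5021 of all 9686 genes.

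Of 18 genes of autonomic and cAMP signaling, 16 were tested, 15 had a negative value and 2 fell, where 5021 of all 9686 genes were negative and 0.764% fell. Adra1b, an alpha-adrenergic receptor gene, was at 70.7, 78.9, 136 and 172 CPM in WT and 24.9, 37.6, 34.4 and 0 CPM in Taz-KO mice (-1.87 ± 0.37, adjusted p = 0.0176), and Crhr2, the urocortin receptor gene, at 39.0, 55.0, 47.2 and 64.6 CPM in WT and 49.7, 17.8, 16.6 and 16.9 CPM in Taz-KO mice (-1.38 ± 0.33, adjusted p = 0.0438). Crhr2 overlapped only in Taz-KO replicate 4685, whose value rests on 8 UMIs. Chrm2, the muscarinic receptor gene of the vagal response, gave -0.84 ± 0.29 (adjusted p = 0.179). The calls of Adra1b and Crhr2 were lost in 9 and 10 of 18 alternatives.

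Natriuretic peptides, sarcomere and calcium cycling genes had no call in atrial nuclei (0 of 8, 24 and 15 genes tested), where 1.96% of all genes tested passed. Nppa gave 0.96 ± 0.30 (adjusted p = 0.137) and Nppb, the gene of the peptide BNP, 0.81 ± 0.32 (adjusted p = 0.254). Mybphl, without overlap at 162, 193, 245 and 245 CPM in WT and 112, 136, 87.8 and 119 CPM in Taz-KO mice, gave -0.96 ± 0.24 (adjusted p = 0.0556), and Sbk3 gave -0.91 ± 0.23 (adjusted p = 0.0556). Among the stress and fetal genes, 12 were tested and Ankrd1 and Acta2 rose, against 1.2% of all genes tested. Ankrd1, a gene of mechanical stress, was at 557, 471, 582 and 317 CPM in WT and 1492, 1284, 1157 and 1914 CPM in Taz-KO mice (1.53 ± 0.25, adjusted p = 0.00375). Acta2, smooth muscle actin, was at 18.98, 24.98, 40.1 and 16.2 CPM in WT and 68.4, 90.2, 157 and 254 CPM in Taz-KO mice (2.25 ± 0.35, adjusted p = 0.00321). Acta2 is also a smooth muscle marker, and the summed level of the 4 markers of that list was 24.8 to 67.8 CPM in WT and 74.6 to 271 CPM in Taz-KO atrial nuclei and 34.2 to 101 and 112 to 193 CPM over whole libraries. Acta2 was at 25.7 to 138 CPM in fibroblast-like barcodes of Taz-KO libraries, which overlaps the atrial nuclei. The part of other cells in the Acta2 result was not tested. No cardiac transcription factor, PPAR or ERR regulator or cardiolipin gene passed (0 of 17, 14 and 7 tested). For lists this short, 0 calls are near the share of all genes tested, 1.96%.

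Whether the Taz-KO effect differed between chambers was tested with the mouse as a block. Of 14249 genes, 320 (2.25%) passed, 192 with a more positive effect in atrial nuclei (1.35%) and 128 with a more negative one (0.898%). Without Taz-KO replicate 4910, 100 passed, 27 of them with a more positive effect. The cardiomyocyte threshold was 0.8 for atrial and 1.5 for ventricular nuclei. With ventricular nuclei taken at 0.8, 185 passed, and with atrial nuclei taken at 1.5, 160. Markers of other cell types were higher in atrial sums, with fibroblast means of 4640 against 3058 CPM in WT mice. Only the adipocyte list was lower, at 92.0 against 97.8 CPM. The part of free RNA in the chamber differences was not tested. A test with limma on the difference of the log2 levels of each mouse called none of the genes, with 1100 (7.72%) at an unadjusted p under 0.05 and a lowest adjusted p of 0.184. The genes below passed only in the test on counts, and the adjusted p of limma is given beside them.

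Rxfp1, the receptor gene of the hormone relaxin, had opposite signs in the 2 chambers, with a WT ventricular level at background. In atrial nuclei it was at 68.6, 97.9, 96.6 and 149 CPM in WT and 68.4, 40.9, 35.6 and 50.8 CPM in Taz-KO mice (-1.31 ± 0.30, adjusted p = 0.0338). In ventricular nuclei it was at 0.574 to 1.36 CPM in WT and 2.47 to 9.73 CPM in Taz-KO mice (2.42 ± 0.41, adjusted p = 0.00318). Fibroblast-like barcodes were at 0.535 to 1.40 CPM in WT and 0.991 to 2.93 CPM in Taz-KO mice, so the WT ventricular level is at background. The Taz-KO ranges of ventricular nuclei and fibroblast-like barcodes overlap. The chamber difference was negative (adjusted p = 5.01e-18 in the test on counts, limma adjusted p = 0.441). The size of this difference is listed only among the flagged results and is not interpreted, since it rests on a WT ventricular level at background. Of the 164 atrial calls that also passed in ventricular nuclei, it was the 1 with opposite signs, and its fall in atrial nuclei alone was lost in 9 of 18 alternatives. The gap between genotypes in atrial nuclei is narrow, with 68.6 CPM in the lowest WT and 68.4 CPM in the highest Taz-KO mouse.

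For several genes the ventricular nuclei changed more. Jcad, a gene of cell junctions, rose in both chambers, by 1.62 ± 0.30 (adjusted p = 0.00971) in atrial and 3.55 ± 0.20 (adjusted p = 2.83e-06) in ventricular nuclei (difference -1.81 ± 0.24, adjusted p = 6.38e-07, limma adjusted p = 0.588). Zfp385b was at 308 to 505 and 406 to 596 CPM in WT and Taz-KO atrial nuclei and at 126 to 193 and 373 to 687 CPM in ventricular nuclei (difference -1.44 ± 0.16, adjusted p = 4.10e-09, limma adjusted p = 0.441). Unc13b, Ppfibp1, Map1b, Ednra and Gm13481 had the same pattern, with levels in WT atrial nuclei above those of WT ventricular nuclei on average and a rise in Taz-KO ventricular nuclei. Their limma adjusted p was 0.588, 0.588, 0.636, 0.626 and 0.588. Ednra, an endothelin receptor gene, was at 104 to 144 CPM in WT and 369.8 to 667 CPM in Taz-KO ventricular nuclei and at 199 to 233 and 236 to 779 CPM in atrial nuclei.

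The other genes of the 10 with the smallest adjusted p fell in ventricular nuclei and did not pass in atrial nuclei. Clu, a secreted chaperone gene, was at 80.8 to 182 and 172 to 254 CPM in WT and Taz-KO atrial nuclei and at 29.8 to 92.9 and 12.5 to 39.5 CPM in ventricular nuclei (difference 1.57 ± 0.18, adjusted p = 2.69e-08, limma adjusted p = 0.588). Cntn5, a neuronal adhesion gene, had a difference of 2.39 ± 0.33 (adjusted p = 7.10e-07, limma adjusted p = 0.665), with more CPM in ventricular than in atrial nuclei of WT mice. Of the atrial genes, Kcnj3 fell in ventricular nuclei, with a log2 fold change of -1.98 ± 0.29 (adjusted p = 0.00156), and gave -0.69 ± 0.28 (adjusted p = 0.284) in atrial nuclei (difference 1.22 ± 0.17, adjusted p = 7.81e-07, limma adjusted p = 0.626). Nppb had opposite signs in the chambers, neither of which passed alone, and a difference of 1.16 ± 0.18 (adjusted p = 8.53e-06, limma adjusted p = 0.588). Cpne5, which fell in atrial nuclei, was at 0.612 to 0.947 CPM in WT ventricular nuclei and at 0.467 to 1.07 CPM in WT fibroblast-like barcodes, a background level, so no chamber difference is given for it.

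**Figure D5:**
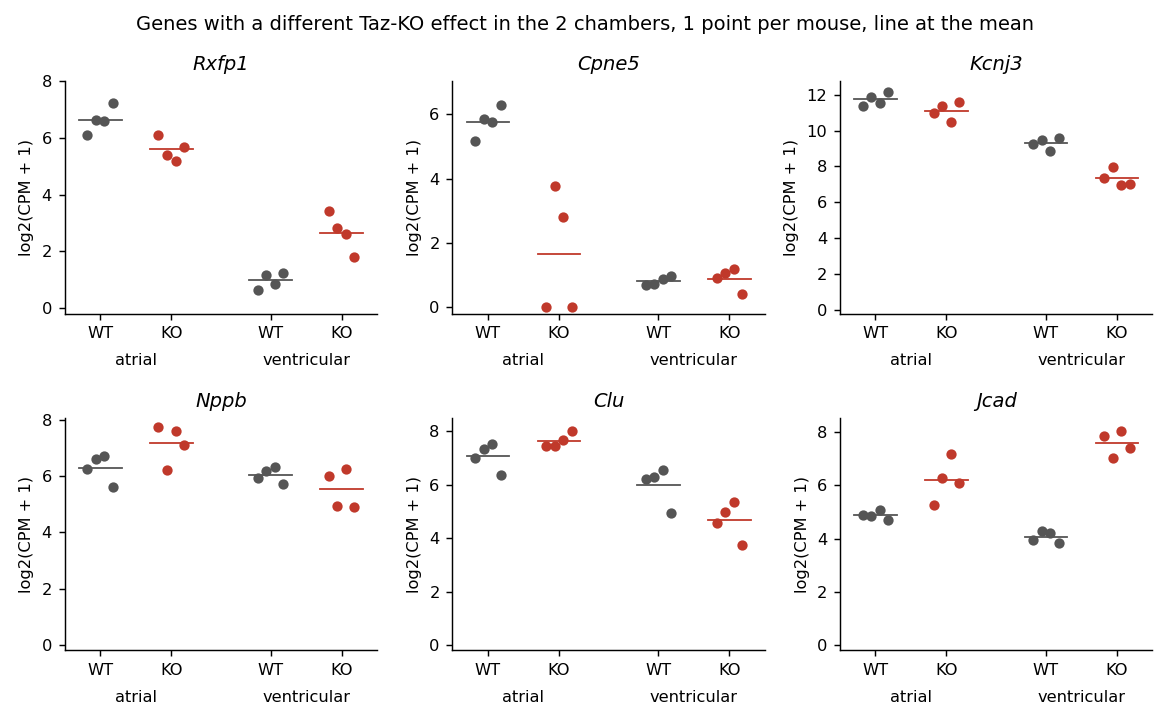
Levels of 6 genes in both chambers on a log2(CPM + 1) axis, 1 point per mouse with a line at the mean, in atrial and ventricular nuclei of WT (grey) and Taz-KO (red, KO) mice. Rxfp1 is lower in Taz-KO atrial nuclei and higher in Taz-KO ventricular nuclei, where its WT level is at background. Cpne5 is near 0 in ventricular nuclei of both genotypes.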

How the data were processed

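Nuclei of cryopreserved whole hearts were sequenced with 10x Genomics 3' chemistry. Per the submitters' processing notes, Cell Ranger 6.0.1 with the mm10 genome was used, and introns were counted. The deposited values are unnormalized UMI counts of each gene in each barcode. The authors' own correction for free RNA and removal of doublets came after these files and was not redone. Counts were summed per mouse, without mitochondrial genes, over the nuclei kept by the rule. The genes of the rule stayed in the library size and were not tested, except Myl7 and Myl4 in nuclei chosen on Sln and Dkk3 alone. The tests used R 4.3.3 and edgeR 4.0.16 (normalization by TMM, filterByExpr, robust quasi-likelihood F test), with Benjamini-Hochberg adjustment over all genes tested. Chambers were compared in 1 model with the mouse as a block and with limma 3.58.1 on log2(CPM + 2). DESeq2 1.42.0 was an alternative. Of gene IDs that share a symbol, the lowest ID is given under it.

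The members and gene lists were chosen with earlier results of these data known. Named genes are Taz, the rule's genes, list members (examples chosen after their values were seen), the 10 largest increases and decreases that passed, had a mean of at least 5 CPM and did not overlap, the 10 smallest adjusted p of the chamber difference and the 15 largest atrial to ventricular ratios. A promoter window with a match is not reported here. Fibroblast-like barcodes were added as a comparator after the data were seen. In simulated data 86% of 4-fold and 13% of 2-fold changes were recovered in atrial sums (9695 genes), and 78% of 4-fold chamber differences in a step run on the same 9695 genes. Mice are the replicates. In the edgeR and limma tests the spread of a gene is moderated by that of all genes. A p-value therefore does not rest on the spread between the mice for that gene alone. For the chamber difference of Zfp385b the unadjusted p was 5.76e-13 in the edgeR test and 2.69e-04 with limma.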

Additional observations from a re-analysis of the deposited data

Results flagged for a closer look

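The Taz-KO effect differed between atrial and ventricular nuclei by the test on counts for 320 genes, of which the 10 with the smallest adjusted p are given here. Their limma adjusted p was 0.441 to 0.665. The differences, atrial minus ventricular on the log2 scale, were -3.81 for Rxfp1, -1.81 for Jcad, -1.56 for Unc13b, -1.56 for Map1b, -1.44 for Zfp385b, -1.27 for Gm13481, -1.18 for Ppfibp1, -1.15 for Ednra, 1.57 for Clu and 2.39 for Cntn5. The size for Rxfp1 is listed without being interpreted, since its WT ventricular level is at background. That level was 0.574 to 1.36 CPM, against 0.535 to 1.40 CPM in WT fibroblast-like barcodes.

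A mouse stood far from the other 3 of its genotype in 4 of 124 groups examined, where chance flags about 1 in 20. Soat2 was at 0 CPM in WT replicate 4909 and at 1.03 to 1.08 CPM in the other WT mice, which is 0 against 1 UMI each and within counting error. Cebpg was at 50.8 CPM in Taz-KO replicate 5301 against 77.0 to 81.9 CPM. Crhr2 was at 49.7 CPM in Taz-KO replicate 4685 against 16.6 to 17.8 CPM. Sbk3 was at 39.2 CPM in Taz-KO replicate 5300 against 49.7 to 51.2 CPM.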

How the results depend on the processing

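Taz-KO replicates 4685 and 5301 rest on 12 and 11 nuclei, and their part in the precision of the tests was not tested. The alternatives were followed gene by gene for 62 called and 12 uncalled results, not for every gene named, and none of these reversed. Of the 62 called, 45 lost their call under at least 1 alternative, in 174 of 1126 fits, and 9 of 12 uncalled ones passed under at least 1. Among the increases, Asns, Trib3, Chac1, Mthfd2, Atf5, Tenm4, Vmn2r3, Soat2 and Tfcp2l1 kept their calls in all alternatives that tested them. So did Acta2, Aldh18a1, Nars, Kctd16, A830018L16Rik and Gm20618. Most of the first group, Atf5 apart, entered the test only through the Taz-KO mice. The alternatives also share most of their mice, so a kept call is no independent evidence. Alternatives that keep fewer nuclei also keep fewer mice, and the cause of a lower count was not tested. No paired analysis was possible because WT and Taz-KO mice share no replicate numbers; the mouse is a block between chambers. At most 5% mitochondrial UMIs could not be fitted, since 1 mouse kept 10 nuclei.

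Atrial genes passing (190) were 24 at the study's thresholds (adjusted p 0.001, log2 change past 0.58 either way), 604 with no filter on low counts, 34 at an atrial enrichment of 10, 96 at a cardiomyocyte enrichment of 1.5, 121 with nuclei chosen on Sln and Dkk3, 118 in nuclei without a Bmp10 UMI (chosen after seeing the data) and 59 to 259 without 1 mouse. Chamber differences (320) were 55 at those thresholds, 0 with limma, 121 with DESeq2, 170 at an atrial enrichment of 10, 160 at a cardiomyocyte enrichment of 1.5, 185 with ventricular nuclei taken at an enrichment of 0.8, 483 without Taz-KO replicates 4685 and 5301 (chosen after seeing the data) and 100 to 402 without 1 mouse. Ventricular genes passing (2570) were 306 at those thresholds, 691 after thinning and 1541 to 2542 without 1 mouse, the lowest without WT replicate 4909. The difference in atrial share (1.70 percentage points) was 1.06 to 2.38 without 1 mouse, 0.604 at a cardiomyocyte enrichment of 1.5, 0.653 with ventricular nuclei at 0.8, 0.759 at an atrial enrichment of 10 and 0.753 at 5% mitochondrial UMIs. As a share of all barcodes with 800 UMIs it was 0.0356 points, and none of these passed (exact permutation p of 0.0571 to 0.8). The fits without 1 mouse could not pass, since 0.0571 is the smallest p of this test there. Taz stayed negative and uncalled in all 18 alternatives, from -0.74 to -0.18 on the log2 scale.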
